A study of Bos taurus with 3 samples.

Results

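Small nuclear RNAs (snRNAs) of the spliceosome and of histone mRNA processing were examined in the small RNA of bovine milk-derived extracellular vesicles (BM-EVs). The members were the sequences of the Rfam count tables whose family name contained "spliceosomal" or "U7 small nuclear". By this rule, 70 snRNAs were found among 1631 listed Rfam sequences. Of these, 27 were named U1, 26 U2, 10 U6, 4 U5, 2 U7 and 1 U6atac. No member was named U4, U11, U12 or U4atac. The BM-EVs came from the milk of Bos taurus, labelled as normal and untreated, and were separated by salting-out of purchased, pasteurized, skimmed milk. There was 1 condition with 3 libraries, numbered by the replicate in the labels and each made from 100 ng of total RNA, and there was no control group. Milk of different expiration dates served as biological replicates in the study, but the milk behind each library is a detail not given in the sources used here. Differences between libraries may thus be partly technical.

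In animal cells, an snRNA is bound by a ring of proteins and works inside the nucleus as the core of a ribonucleoprotein particle. U1 pairs with the 5′ splice site and U2 with the branch point of an intron, and U4, U5 and U6 then join as a preassembled particle in which U6 forms the catalytic centre. The minor spliceosome removes a rare class of introns and uses U11, U12, U4atac and U6atac in the places of U1, U2, U4 and U6, while U5 serves both machines. U7 takes no part in splicing and guides the 3′ end cleavage of histone mRNA precursors. Mammalian genomes hold many copies of these genes, and many of the copies are shortened or altered pseudogenes.

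Each count was a number of unique molecular indices (UMIs), so that PCR copies of a captured molecule were counted once. The libraries held 1090617, 2310689 and 965891 miRNA and Rfam UMIs, in the order of libraries 1, 2 and 3. Every listed count was at least 11, so a sequence not listed in a library had at most 10 UMIs there and may still have been present. Sums take such counts as 0. Rates are given as CPM, the UMIs of a sequence per 1000000 miRNA and Rfam UMIs of the library. All 4 miRNAs of a list of abundant milk and epithelial miRNAs (miR-148a, miR-200c, miR-141 and miR-30a-5p) were listed in every library and held 10.2% to 13.6% of the miRNA UMIs. The 2 miRNAs of red blood cells, miR-451 and miR-144, were listed in no library, and 3 leukocyte miRNAs held 0.164% to 0.218%. The tables count whole Rfam sequences, so they do not show which part of an snRNA was captured.

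The snRNAs were a small part of the libraries. They had 931, 1571 and 931 UMIs in libraries 1, 2 and 3, or 854, 680 and 964 CPM. The mean was 832 ± 143 CPM (SD, n = 3), which is 0.0832% ± 0.0143 of all UMIs. The Wilson 95% interval was 0.0801% to 0.0910% in library 1, 0.0647% to 0.0714% in library 2 and 0.0904% to 0.103% in library 3. These intervals cover counting error only and take UMIs as independent. UMIs counted at several copies of a gene would make them too narrow. The interval of library 2 lay below both others, although this library was the deepest. Unlisted members could add at most 220, 140 and 230 UMIs to the 3 sums. A further 23, 32 and 66 sequences without a family name at hand, with 506, 917 and 1141 UMIs, could not be assigned to any class, so the number of members is a minimum. The study reports a much larger snRNA share of its small RNA biotype counts. How those were counted was not examined here, so the 2 shares are not compared.

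**Figure D1:**
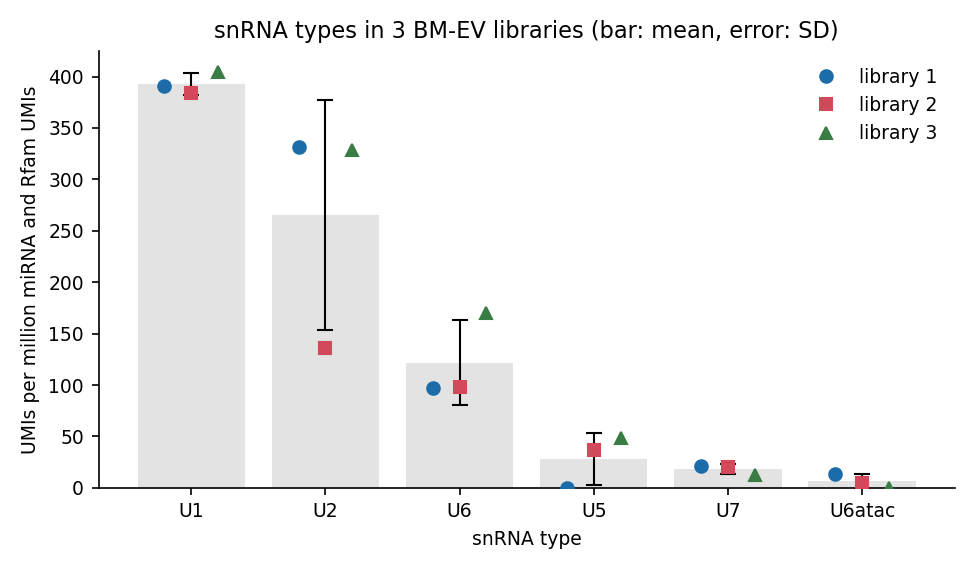
UMIs per 1000000 miRNA and Rfam UMIs (CPM, y axis) of each snRNA type (x axis) in the 3 libraries (symbols), with the mean as a bar and the SD over the 3 libraries as the error bar. A symbol at 0 stands for a type with no listed sequence in that library. U1 lay between 384 and 405 in all libraries, while U2 was 136 in library 2 against 331 and 328 in libraries 1 and 3.

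U1, which marks the start of an intron, had the highest summed UMIs of any type in every library. Whether copies share UMIs was not tested, so a sum over many sequences may count a molecule more than once. With only the sequence of highest mean UMIs of each type, U1 held 26.3% and U6 27.7% of the snRNA UMIs in the mean. Its 27 sequences summed to 426, 887 and 391 UMIs, or 391, 384 and 405 CPM. The mean rate was 393 ± 10.7 CPM (SD, n = 3), so that the U1 rate differed little between libraries of very different depth. U1 held 45.8%, 56.5% and 42.0% of the snRNA UMIs, with a mean of 48.1% ± 7.50. U1 and U2 together held 79.0% ± 4.77.

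The U1 molecules were spread over many loci. The highest U1 sequence by mean, on chromosome 19 from 9857636 to 9857799 on the minus strand, had 35, 58 and 27 UMIs in libraries 1, 2 and 3. The next had 26, 63 and 27 UMIs and lay on chromosome 2 from 134289834 to 134289997 on the minus strand. The third had 32, 47 and 36 UMIs and was a plus-strand sequence of chromosome 10 (39410674 to 39410837). These sequences could not be told apart in rank, since a count of 35 has an exact Poisson 95% interval of 24.4 to 48.7. The 15 U1 sequences listed in every library had 12 to 35 UMIs in library 1, 28 to 63 in library 2 and 17 to 36 in library 3. Among these 15, the ratio of variance to mean was 2.13, 2.08 and 1.30, against 1 for Poisson counts of equal mean. All 15 were 164 bases long, which is the commonest U1 length. Since near-identical copies can share UMIs, the value of a single copy is uncertain. The treatment of reads with several matches is a step not given in the sources used here.

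Some U1 loci lay side by side. With neighbours of a type within 100 kb of each other counted as a cluster, U1 had 5 clusters with 12 of its 27 sequences. The largest, 4 copies within 26.8 kb on chromosome 19 (9850958 to 9877801), all on the minus strand, held 24.3% ± 1.52 (SD, n = 3) of the U1 UMIs. A pair on chromosome 21 (45378250 to 45407124) held 12.7% ± 1.04 and a pair on chromosome 10 (74737241 to 74754845) held 12.3% ± 0.929. On chromosome 3, a pair (21188029 to 21199826) held 9.68% ± 0.573, and another pair less than 1 kb long (21433394 to 21434335) held 6.41% ± 1.58. In that last pair, a U1 sequence of 164 bases had 24, 62 and 21 UMIs, while its neighbour of 137 bases was listed in library 2 only, with 11 UMIs. The positions are those in the sequence names, on a genome build not given in the sources used here.

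**Figure D2:**
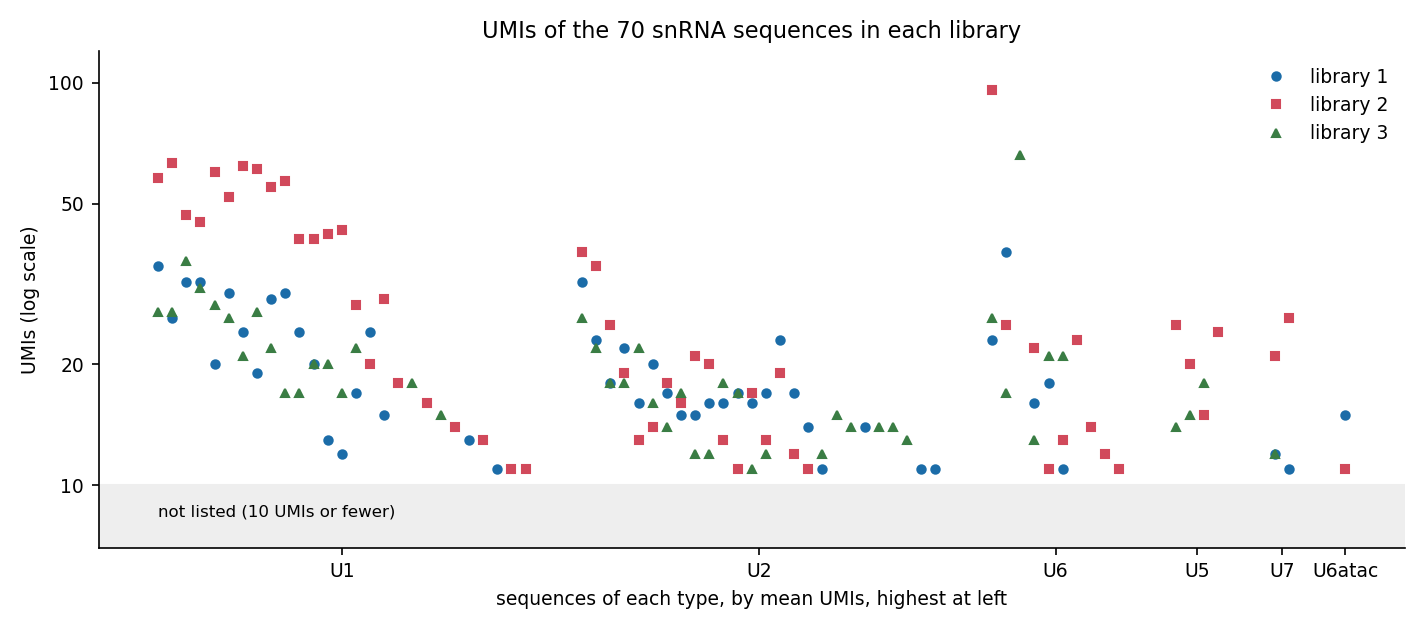
UMIs on a log scale (y axis) of each of the 70 snRNA sequences (x axis, ordered by mean UMIs within each type) in the 3 libraries (symbols). The grey band marks counts of 10 UMIs or fewer, which are not listed. Squares of library 2 lie above the other symbols for most U1 sequences but among them for U2, and 1 U6 sequence has a symbol of library 3 only, at 66 UMIs.

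U2, the branch point snRNA, was the second type by summed UMIs in every library, but its rate was not even. Its 26 sequences summed to 361, 315 and 317 UMIs in libraries 1, 2 and 3, or 331, 136 and 328 CPM, with a mean of 265 ± 112 (SD, n = 3). U2 held 38.8%, 20.1% and 34.0% of the snRNA UMIs, and its Wilson 95% interval in library 2, 18.1% to 22.1%, lay apart from those in libraries 1 and 3. The deepest library thus gave no more U2 UMIs than the other two.

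The U2 sequence with the highest mean, a plus-strand sequence of chromosome 17 (1172865 to 1173022), had 32, 38 and 26 UMIs. It was 158 bases long, against 191 bases for the commonest U2 length. The next had the commonest length, lay on chromosome 29 from 41846574 to 41846764 on the minus strand, and had 23, 35 and 22 UMIs. The third, with 18, 25 and 18 UMIs, lay on chromosome 19 from 43833327 to 43833517 on the minus strand, inside a large array. Among the U2 sequences that differed at least 3-fold in rate between libraries, one on chromosome 16 (71077717 to 71077907) had 16, 13 and 22 UMIs, and one on chromosome 24 (11157561 to 11157751) had 16, 13 and 18. Both had fewer UMIs in library 2 than in either shallower library.

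That array held 10 of the 26 U2 sequences within 108 kb of chromosome 19 (43829756 to 43937992), 8 on the minus and 2 on the plus strand. In the human genome, U2 genes stand in a tandem array. Whether the copies here form a regular repeat was not tested. Distances between neighbouring copies were 3.38 to 29.6 kb, with a median of 11.1 kb. The array summed to 173, 173 and 135 UMIs and held 48.5% ± 6.19 (SD, n = 3) of the U2 UMIs. Its listed copies had 15 to 22 UMIs in library 1, 11 to 25 in library 2 and 11 to 18 in library 3, and 9 of the 10 were listed in every library. The exception (43937802 to 43937992), with 17 and 12 UMIs in libraries 1 and 2, was not listed in library 3. Of the others, those starting at 43889806 and 43863080 had the lowest rates in library 2 relative to the other libraries, with 20, 14 and 16 UMIs and 17, 11 and 17 UMIs. The ratio of variance to mean among the listed copies was 0.283, 1.05 and 0.517 in libraries 1, 2 and 3. Poisson counts of equal mean have a ratio of 1, but leaving out counts under the listing minimum lowers the ratio. The value of 1 is thus not an exact reference for these copies. Whether the copies share UMIs was not tested, so they are not separate measurements. For orientation, the RefSeq annotation of ARS-UCD2.0 has 975 genes of the snRNA class, of which 19 are 191 bases long, 13 of them on chromosome 19. These were counted by length alone, not by type, and since the builds may differ, they were not matched to the listed copies one by one.

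**Figure D3:**
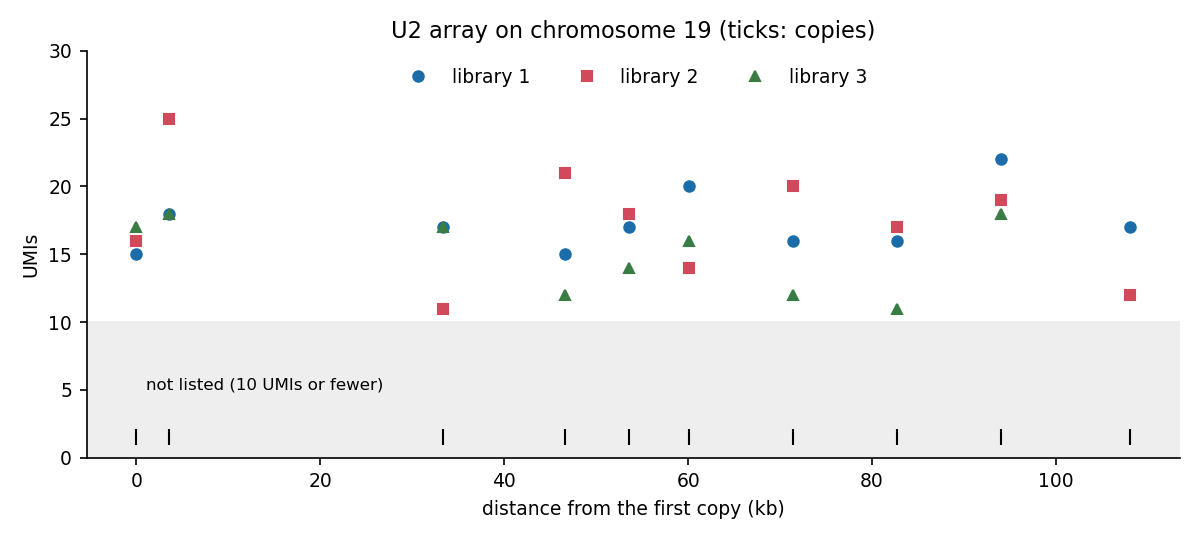
UMIs (y axis) of the 10 U2 copies of the chromosome 19 array against the distance from the first copy in kb (x axis, ticks mark the copies) in the 3 libraries (symbols). A missing symbol is a copy not listed in that library, and the grey band marks counts of 10 UMIs or fewer. The copies lie between 11 and 25 UMIs in every library in which they are listed.

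The balance of U1 and U2 set library 2 apart. The U1 to U2 ratio of summed UMIs was 1.18 (95% exact interval 1.02 to 1.36) in library 1, 2.82 (2.47 to 3.21) in library 2 and 1.23 (1.06 to 1.43) in library 3. U1 was thus higher in 3 of 3 libraries, with a mean log2 ratio of 0.68 ± 0.71 (SD, n = 3; exact two-sided sign permutation test within libraries, p = 0.25, and 0.375 after Benjamini-Hochberg adjustment over 3 comparisons). With 3 libraries this test cannot give a p under 0.25. The intervals of the ratios take UMIs as independent, so UMIs shared between copies would make them too narrow. Without library 2, the mean log2 ratio was 0.27, and without counts under 20 UMIs it was 2.04. The medians of the sequences listed in every library gave ratios of 1.41, 2.97 and 1.29. The U1 and U2 sequences with the highest mean UMIs, the same in every library, gave 1.09, 1.53 and 1.04. Library 2 had the highest ratio in each of these, but by a smaller margin for the highest sequences.

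The same was seen copy by copy. Library 2 had 2.12 times the UMIs of library 1 in all. The summed U1 UMIs of library 2 were 2.08 times those of library 1, a rate ratio of 0.983 (95% exact interval 0.875 to 1.11), while those of U2 were 0.873 times, a rate ratio of 0.412 (0.353 to 0.480). Of the 17 U2 sequences listed in both libraries, all 17 had a lower rate in library 2, and 16 were lower by at least 1.5-fold. Of all 1063 Rfam sequences listed in both, 55.9% had a lower rate. Transfer RNA was 659 of these 1063, with 286 lower. Of the 17 U1 sequences listed in both, 11 had a lower rate, 2 were lower by at least 1.5-fold and 3 were higher by as much. Among all Rfam sequences listed in both, 32.1% were lower by at least 1.5-fold and 18.2% were higher by as much. Against library 3, summed U1 had a rate ratio of 0.948 in library 2 and summed U2 had 0.415. There, 12 of 14 U2 sequences and 3 of 15 U1 sequences were lower in library 2 by at least 1.5-fold, against 39.1% of 1075 Rfam sequences. Of the same 1075 Rfam sequences, 14% were higher in library 2 by at least 1.5-fold. Libraries 1 and 3 had nearly the same rates, with a ratio of library 3 to library 1 of 1.04 (0.901 to 1.19) for U1 and 0.992 (0.850 to 1.16) for U2. In that pair, 10.5% of 1020 Rfam sequences were lower and 28.1% higher in library 3 by at least 1.5-fold, against 0 and 1 of 15 U2 sequences and 1 and 4 of 15 U1 sequences. Each side of these ratios is 1 library, so they describe these libraries, and copies that share UMIs do not add independent support. A sequence could stay unlisted up to 9.17, 4.33 and 10.4 CPM in libraries 1, 2 and 3. Near the listing minimum, sequences listed in both libraries thus tend towards lower rates in library 2. Many U2 counts lay near that minimum, while the Rfam shares include the more abundant transfer and ribosomal RNA. The lower U2 rate of library 2 held inside the chromosome 19 array (ratio to library 1 of 0.472) and outside it (0.357).

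**Figure D4:**
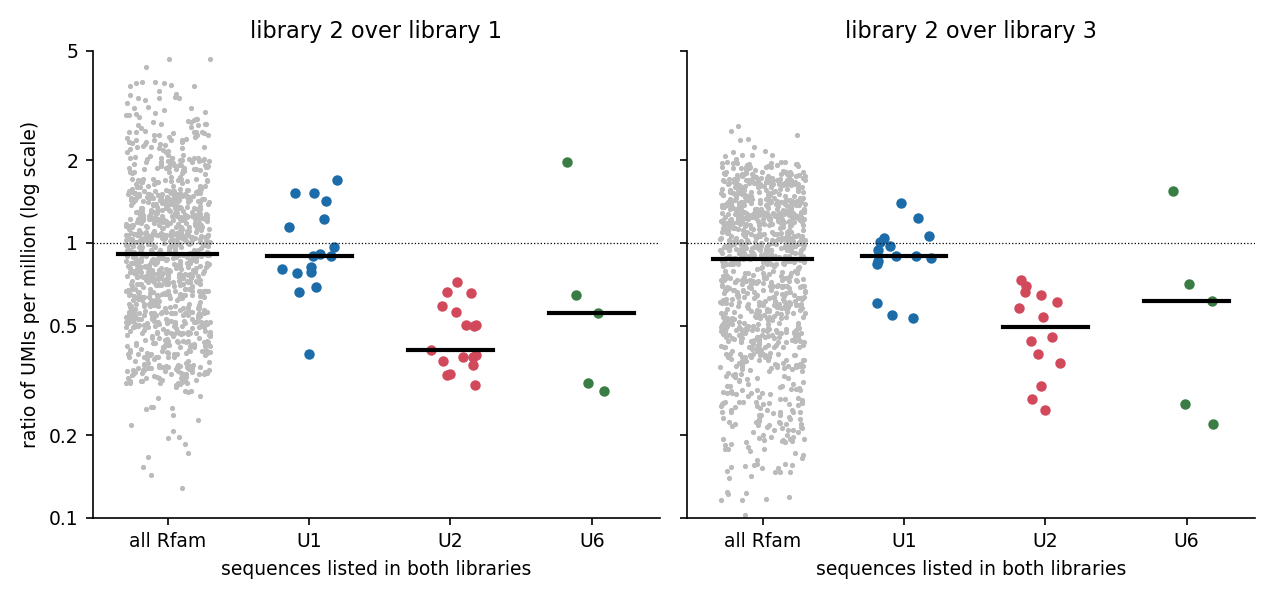
Ratio of CPM in library 2 to that in library 1 (left) and in library 3 (right), on a log scale (y axis), for Rfam sequences listed in both libraries (x axis: all sequences, U1, U2 and U6), with black lines at the medians. The U2 medians, 0.408 and 0.495, lie below those of U1, 0.897 and 0.898, and below those of all Rfam sequences, 0.908 and 0.875. Sequences with a ratio under 0.1 or above 5 are off the axis (0 at left and 13 at right).

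Other RNAs also had a lower rate in library 2. The 7SK RNA, a nuclear RNA that holds back transcription elongation, had 246, 97.4 and 263 CPM over its 23 sequences, a ratio of library 2 to library 1 of 0.396. Ribosomal RNA had a ratio of 0.603 and transfer RNA 1.04. Sequence by sequence, 237 of 286 ribosomal and 4 of 5 7SK sequences listed in libraries 1 and 2 were lower in library 2. So were 11 of 13 small nucleolar and Cajal body sequences, against 286 of 659 of transfer RNA. By at least 1.5-fold, 194, 4, 6 and 106 of these were lower, in the same order. The part of these other classes in the U2 difference was not tested. Relative to 7SK, the snRNAs were higher by 3.47, 6.98 and 3.67 times in libraries 1, 2 and 3 (exact two-sided sign permutation test, p = 0.25, adjusted 0.375, the smallest p being 0.25). Small nucleolar and Cajal body RNAs, which guide the modification of other RNAs, had 387, 322 and 1257 CPM over 65 sequences. The ratio of snRNA to these was 2.21, 2.11 and 0.767, so snRNA was higher in 2 of 3 libraries only (exact two-sided sign permutation test, p = 0.5, adjusted 0.5).

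U6, the catalytic snRNA, was the third type by summed UMIs in every library, and a few sequences carried it. Its 10 sequences summed to 106, 227 and 164 UMIs, or 97.2, 98.2 and 170 CPM, with a mean of 122 ± 41.6 (SD, n = 3). The highest, on chromosome 3 from 45755686 to 45755792 on the minus strand, had 23, 96 and 26 UMIs. Its count of 96 was the highest of any snRNA sequence in any library before scaling to depth. As a rate, this was 41.5 CPM, below the 68.3 CPM of another U6 sequence in library 3. The count of 96 nevertheless ranked only at place 649 among the 1332 Rfam sequences of library 2. The second, a plus-strand sequence of chromosome 7 (28498780 to 28498886), had 38, 25 and 17 UMIs, with its lowest rate in library 2. These are both of the commonest U6 length, 107 bases.

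The third U6 sequence by mean, 104 bases of chromosome 19 (45632903 to 45633006, plus strand), had 66 UMIs in library 3 and was not listed in libraries 1 and 2. Its rate in library 3 was thus at least 7.45 times the largest that library 1 could hold unlisted, and at least 15.8 times that of library 2. Without it, U6 had 97.2, 98.2 and 101 CPM, a mean of 99.0 ± 2.22, so the spread of U6 between libraries rests on this sequence. The even rate of libraries 1 and 2 in turn rests on the chromosome 3 sequence. Without that one, the ratio of library 2 to library 1 was 0.745 in place of 1.01, and the other 4 U6 sequences listed in both libraries were all lower in library 2.

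Of the other U6 sequences, one on chromosome 13 (30248052 to 30248443, minus strand) spanned 392 bases and had 16, 22 and 13 UMIs. One on chromosome 1 (128208753 to 128208847, minus strand, 95 bases) had 18, 11 and 21 UMIs, and one on chromosome 19 (22228107 to 22228213, plus strand, 107 bases) had 11, 13 and 21. The last 4 were listed in library 2 only, with 11 to 23 UMIs, and 2 of these lay on chromosome X. At the rate of library 2 they would have had 5.19 to 10.9 UMIs in library 1, around or under the listing minimum, so their absence from the other lists cannot be told from lower depth. Counted by length alone and not by type, RefSeq has 410 snRNA genes of 107 bases in ARS-UCD2.0. Among the listed U6 sequences, 3 had this length.

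U5, which holds the exon ends during splicing and is shared by both spliceosomes, was listed in libraries 2 and 3 only. Its 4 sequences summed to 84 UMIs in library 2 and 47 in library 3, or 36.4 and 48.7 CPM. A sequence on chromosome 3 from 101870236 to 101870351 had 25 and 14 UMIs in libraries 2 and 3, and another 88.8 kb away, from 101781321 to 101781437, had 20 and 15. One on a contig not placed on a chromosome had 15 and 18, and one on chromosome 16 from 42633976 to 42634091 had 24 UMIs in library 2 only. All 4 were on the plus strand and 116 or 117 bases long. At the rates of library 2, they would have had 7.08 to 11.8 UMIs in library 1, around the listing minimum. At the rates of library 3, the 3 sequences listed there would have had 15.8 to 20.3 UMIs in library 1, above that minimum. Library 1 was thus lower than library 3 by at least 1.58 to 2.03 times for these sequences before counting error, and the count of 14 behind the smallest of these bounds has an exact Poisson 95% interval of 7.65 to 23.5.

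U6atac was the only type of the minor spliceosome alone that was listed. Its single sequence, 126 bases on chromosome 22 from 48688956 to 48689081 on the minus strand, had 15 and 11 UMIs in libraries 1 and 2 and was not listed in library 3. It held 1.61% (Wilson 95% interval 0.979% to 2.64%) of the snRNA UMIs in library 1 and 0.700% (0.391% to 1.25%) in library 2. U11, U12, U4atac and the major spliceosomal U4 had no sequence with that name, and such sequences may still lie below the listing minimum or among those without a name at hand.

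U7 was listed with 2 sequences of 62 bases, both on the minus strand. The one on chromosome 5 from 103880551 to 103880612 had 12, 21 and 12 UMIs in libraries 1, 2 and 3. The other, on a contig not placed on a chromosome, had 11 and 26 UMIs in libraries 1 and 2 and was not listed in library 3. U7 summed to 21.1, 20.3 and 12.4 CPM, and the rate ratio of library 2 to library 1 was 0.964 (95% exact interval 0.574 to 1.66). U7 thus held 2.25% ± 0.872 (SD, n = 3) of the snRNA UMIs.

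Sequences of the commonest length of their type carried most UMIs. Of the 69 sequences of the types with more than 1 member, 44 were within 1 base of the commonest length, and these held 76.5%, 86.0% and 75.8% of the UMIs in libraries 1, 2 and 3. Among the 44, 31 were listed in every library, against 4 of the 25 of other lengths. For U1, the 22 sequences of 163 or 164 bases held 94.5% ± 5.64 (SD, n = 3) of the U1 UMIs, and none of the 5 shorter ones, of 137 to 161 bases, was listed in every library. For U2, the 13 sequences of 191 bases held 66.2% ± 7.65, and the 13 of other lengths, from 79 to 201 bases, held the rest. With unlisted counts as 0, the U2 sequences of other lengths had a ratio of library 2 to library 1 of 0.280 (95% exact interval 0.209 to 0.373). Those of 191 bases had 0.489 (0.406 to 0.589). Only 4 of the 13 sequences of other lengths were listed in both libraries, against all 13 of 191 bases. Counts entered as 0 can thus shift the first ratio, so these ratios cannot show a difference by length. Among U2 sequences listed in both libraries, single ratios were 0.305 to 0.560 for other lengths and 0.330 to 0.718 for 191 bases. For U6, the 3 sequences of 107 bases held 67.9%, 59.0% and 39.0% of the U6 UMIs.

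**Figure D5:**
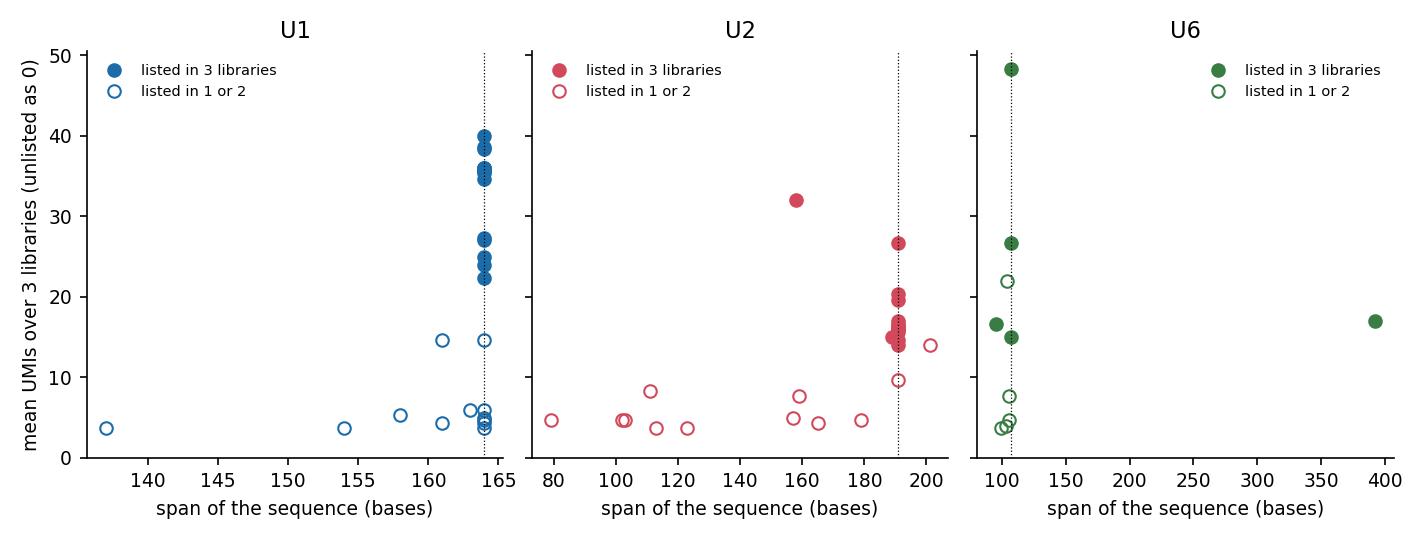
Mean UMIs over the 3 libraries, with unlisted counts as 0 (y axis), against the span of the sequence in bases (x axis) for U1, U2 and U6. Filled points were listed in 3 libraries and open points in 1 or 2, and the dotted line marks the commonest length of the type. The filled U1 points all stand at 164 bases, while a U2 sequence of 158 bases is the highest of its type and a U6 sequence of 392 bases is listed in every library.

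In all, 35 of the 70 snRNA sequences (50%) were listed in every library, against 61.2% of all Rfam sequences listed in any. Library 2 alone listed 11 snRNA sequences, library 3 alone 8 and library 1 alone 5. By type, library 2 alone listed 6 U1, 4 U6 and 1 U5 sequences but no U2 sequence, while libraries 1 and 3 alone listed 3 and 5 U2 sequences. Of all Rfam sequences, 4.9% were listed in library 1 alone, 11.8% in library 2 alone and 12.1% in library 3 alone. The difference between types in these counts was not tested. All these Rfam shares include 101 sequences with no entry at hand and 12 with an entry but no family name, which could not be members. Each of the 101 had at most 18 UMIs in all, so none of the 101 could be listed in more than a single library. Of the 5 U2 sequences listed in library 3 only, which had 13 to 15 UMIs, 3 lay on chromosome 16. Their rate in library 3 was at least 1.47 to 1.69 times the largest that could stay unlisted in library 1, and 3.11 to 3.59 times that of library 2. A further 2 U1 sequences were listed in library 3 only, on chromosome 1 (42481847 to 42482009) with 18 UMIs and on chromosome 24 (28822883 to 28823046) with 15. Among the sequences listed in every library, the median coefficient of variation of the rate was 21.9% for the 15 U1, 37.5% for the 14 U2 and 58.7% for the 5 U6 sequences, against 31.7% for all 998 such Rfam sequences. These coefficients include counting error, which is larger at low counts.

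By position, the 67 sequences placed on a chromosome lay on 23 chromosomes, with 17 on chromosome 19 and 10 on chromosome 3. Chromosome 19, which holds the U2 array and the largest U1 cluster, had 1012 of the snRNA UMIs summed over the 3 libraries, and chromosome 3 had 547. Of all 70 sequences, 43 were named on the minus strand and 27 on the plus strand.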

How the data were processed

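Small RNA of BM-EVs was sequenced in 3 libraries of 1 condition. Per the labels and the study's methods, the authors used a miRNA kit with UMIs, trimmed adapters, removed low-quality reads, and mapped to miRBase first and to Rfam second. Bowtie 1.2.2, cutadapt 2.7 and FastQC are named in the processing notes of the submitters. The values, as deposited, were UMI counts with no scaling. Build, database versions, mismatches, strand use and the handling of multiple matches are not given in the sources used here.

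Family names came from the study's table of Rfam sequences, of which 1605 rows were at hand and 8250 were not. They named 1518 of the 1631 listed sequences. Of the rest, 12 had a row without a name and 101 had no row, each of these with at most 18 UMIs summed over the libraries. Only names and chromosomes were taken from that table. Positions, strands and spans came from the sequence names.

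The members and lists were chosen with earlier results of these data known. Values by library are given for the 3 highest sequences of each type, all members of types with up to 6, and those differing at least 3-fold in rate between libraries, with the 5 U2 sequences of library 3 alone given by range. The values of a U1 pair with a shortened copy were added after they were seen. Shares have Wilson intervals and ratios exact binomial intervals (95%), both of which take UMIs as independent. Sign permutations within libraries were exact. The computation of library ratios was tested on simulated independent counts, with no listing minimum and no shared UMIs, so those limits were not covered. No sequence letters of the members were used here. Alternatives were other denominators, TMM factors (edgeR 4.0.16), DESeq2 1.42.0 size factors, another count minimum, unlisted counts at 10, copies counted once, other lengths and cluster distances, and leaving out each library. Computations used scipy 1.17.1, numpy 2.4.6, matplotlib 3.10.9 and pandas 2.3.3 in Python 3.11.15, with R 4.3.3 for the factors.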

Additional observations from a re-analysis of the deposited data

How the results depend on the processing

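No paired analysis was possible because all 3 libraries belong to 1 group. The mean log2 ratio of U1 to U2, 0.68, stayed above 0 under the alternatives run, between 0.26 with the highest sequences and 2.04 without counts under 20 UMIs. With unlisted sequences at 10 UMIs, snRNA had 999 CPM, the array held 41.1% of U2, commonest lengths held 73.0%, and the U1 rate ratio of library 2 to library 1 was 0.865. Without counts under 20 UMIs, snRNA had 508 CPM, U1 held 63.3%, U2 16.2% and U7 1.28% of it, the array held 27.5% of U2, 12 sequences in place of 35 were listed in every library, and the rate ratios were 1.16 for U1 and 0.547 for U2. These moves follow from fewer or added counts. Per 1000000 Rfam UMIs other than tRNA and rRNA, snRNA had 40368, and the rate ratios were 0.639 for U1 and 0.268 for U2, since the denominator is smaller and differs between libraries. With only the sequence of each type that had the highest mean UMIs, snRNA had 108 CPM. Of this, 26.3% was U1, 27.7% U6, 7.79% U5, 5.75% U6atac and 10.04% U7, since U1 and U2 lose most copies. In that setting, U6 was above U1 in the mean. With clusters within 20 kb the array held 37.4%, and lengths within 5 bases held 86.1%. Chosen after seeing the data, the highest sequences gave rate ratios of 0.782 for U1 and 0.560 for U2, and sequences listed in every library gave 0.496 for U2. The other 71 values stayed within 1 SD, the counting interval or, for counts, 1.5 times, apart from the ratio of 2.04 above. With 1 of 3 libraries left out, a mean cannot move by 1 SD. Counts of 11 to 30 UMIs limit the precision of most single sequences.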
